A study of Arabidopsis thaliana with 24 samples.

Results

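The genes of stomatal development were read out across the 4 genotypes and both treatments of an RNA-Seq experiment on *Arabidopsis thaliana* rosettes. Members were chosen by locus identifier: the bHLH transcription factors *SPCH* (AT5G53210), *MUTE* (AT3G06120), *FAMA* (AT3G24140), and *ICE1* (AT3G26744), the receptors *TMM* (AT1G80080) and *ERECTA* (AT2G26330), the secreted peptides *EPF1* (AT2G20875), *EPF2* (AT1G34245), and *STOMAGEN* (AT4G12970), and the protease *SDD1* (AT1G04110). All 10 were found among the 37813 genes of the count table, and all 10 passed the filter on low counts, so that they are among the 20094 protein-coding genes tested. The groups were *phot1*, *phot2*, the double mutant *phot1phot2* (phot1/phot2 in the labels), and the wild type (WT), and every genotype carried the gl1 background of Col-0, which lacks leaf hairs. Plants either received UV-C (100 mJ cm-2) and were taken 30 min later, or were left non-treated. Each of the 8 groups had 3 biological replicates, each a pool of at least 4 whole rosettes, which gives 24 libraries. The sample labels give the plants' age as 4 weeks, whereas the study's methods give a younger age for the RNA-Seq plants.

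Stomata are pores in the leaf epidermis, each framed by a pair of guard cells. SPCH starts the lineage by driving the asymmetric division of a protodermal cell, MUTE ends the self-renewing divisions and makes the guard mother cell, and FAMA stops the last division and lets guard cells differentiate. ICE1 is the bHLH partner of all of them. EPF2 and EPF1 are secreted peptides that restrain entry into the lineage and the spacing of stomata, and are perceived by kinases of the ERECTA family together with the receptor-like protein TMM. STOMAGEN, a peptide of the same family made in the mesophyll, promotes stomata by competing at these receptors. SDD1 is a subtilisin-like protease that limits stomatal number. In a rosette, the early lineage is found mainly in young leaves, whereas mature guard cells are found in all of them.

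Counts per library summed to between 20897905 and 28723145 after UV-C and between 33200727 and 41902444 in non-treated plants, so that a low transcript rests on fewer reads after UV-C. *PHOT1*, read as a check of the labels, had log2FC −1.34 and −1.30 in non-treated *phot1* and *phot1phot2* relative to WT, and *PHOT2* had −0.71 and −0.70 in non-treated *phot2* and *phot1phot2*, and neither gene was at 0 reads in its mutants. Whole rosettes mix all leaf cell types, hence fewer cells of the stomatal lineage and less RNA per cell cannot be told apart in any result below. Levels are given as CPM, read counts divided by the library size after scaling by trimmed means of M values (the TMM method, unrelated to the gene *TMM*). Comparisons are given as log2 fold changes (log2FC) with their standard error (SE) from edgeR's quasi-likelihood test, and "edgeR adjusted p" is its Benjamini-Hochberg adjusted p over the 20094 genes. A member is said to have risen or fallen where that p was under 0.01. Ranges of CPM that do not overlap between 2 groups are given as a description only. The share of all tested genes with such ranges was not counted.

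The stretches before the transcription start are shown for *FAMA*, *TMM*, and *MUTE*, because *FAMA* and *TMM* fell after UV-C in every genotype and *MUTE* had the largest fall of all members. Each is the 250 bases that end at the annotated start, read 5′ to 3′ on the strand of the gene from RefSeq's TAIR10.1 assembly, in which the members have the same start and end as in the deposited table. They lie at chr3:8718212-8718461 (*FAMA*, minus strand), chr1:30129650-30129899 (*TMM*, minus strand), and chr3:1846192-1846441 (*MUTE*, plus strand), and overlap no annotated gene. Capitals mark matches to the E-box CANNTG, the core bound by bHLH factors, and to TAAATGCA or TAAATGTA, forms of the L1 box found upstream of epidermal genes.
FAMA: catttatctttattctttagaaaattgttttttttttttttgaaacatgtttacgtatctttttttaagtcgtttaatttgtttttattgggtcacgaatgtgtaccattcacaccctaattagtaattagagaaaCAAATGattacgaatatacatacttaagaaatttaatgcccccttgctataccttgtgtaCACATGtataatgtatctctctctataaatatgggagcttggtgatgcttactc
TMM: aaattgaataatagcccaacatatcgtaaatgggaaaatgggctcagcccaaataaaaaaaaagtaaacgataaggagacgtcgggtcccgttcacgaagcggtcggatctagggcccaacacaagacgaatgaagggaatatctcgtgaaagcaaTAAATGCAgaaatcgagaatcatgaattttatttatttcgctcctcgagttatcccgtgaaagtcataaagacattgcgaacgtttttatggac
MUTE: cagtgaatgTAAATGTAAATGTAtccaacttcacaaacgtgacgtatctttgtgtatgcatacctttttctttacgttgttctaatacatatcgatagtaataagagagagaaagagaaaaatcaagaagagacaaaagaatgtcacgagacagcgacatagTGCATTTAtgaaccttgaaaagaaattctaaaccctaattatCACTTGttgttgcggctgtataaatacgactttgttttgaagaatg
The E-box reads the same on both strands, and the L1 box was searched on both. *FAMA* had 2 E-boxes, *MUTE* had 1 E-box, and *TMM* had none in this window. *TMM* had 1 L1 box (TAAATGCA), and *MUTE* had 1 copy of TAAATGCA on the other strand and 2 copies of TAAATGTA that overlap each other. Over all members, 5 of 10 held an E-box, 2 held TAAATGCA, 1 held TAAATGTA, and 0 held the G-box CACGTG, a special case of the E-box. Among the windows of 20088 tested genes, 56.3% held an E-box, 1.55% TAAATGCA, 3.06% TAAATGTA, and 7.39% CACGTG. A match describes the letters of the window and no binding.

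Per kilobase of exon, the members spanned a wide range of levels. In non-treated WT, *STOMAGEN* (23.8 ± 0.804 CPM per kb, SD, n = 3), *ERECTA* (23.2 ± 1.37), and *ICE1* (17.8 ± 0.567) were the most abundant, followed by *FAMA* (10.6 ± 0.114) and *TMM* (5.15 ± 0.726). *EPF2* (2.46 ± 0.260), *SPCH* (1.89 ± 0.136), *EPF1* (1.44 ± 0.222), *MUTE* (0.984 ± 0.217), and *SDD1* (0.548 ± 0.0924) were the lowest. The ranges of *STOMAGEN* and *ERECTA* overlapped, so that their order is not set by these libraries, and *ICE1* lay below both. *MUTE* and *EPF1* were counted with few reads, 2 to 49 and 7 to 75 per library, and their values carry large counting errors. None of the 10 genes shares exonic bases with another annotated gene.

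**Figure D1:**
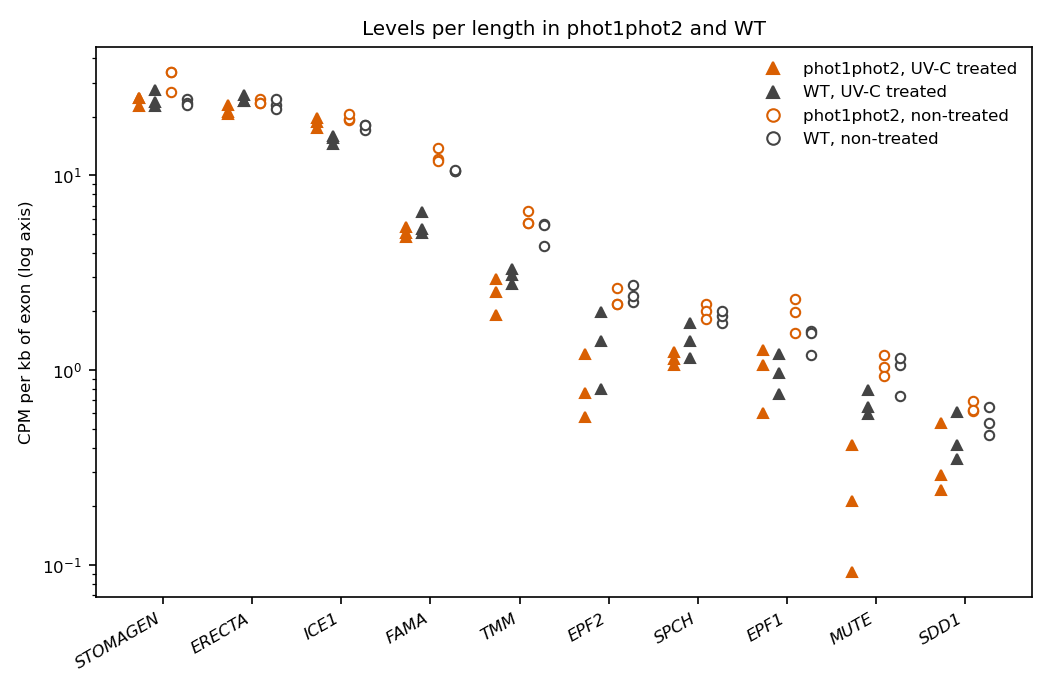
Level of each gene in CPM per kilobase of exon (log axis) in *phot1phot2* and WT after UV-C (triangles) and non-treated (circles), 1 symbol per library, ordered by the mean in non-treated WT. *STOMAGEN*, *ERECTA*, and *ICE1* lie at the top with overlapping or neighbouring ranges. *MUTE* in UV-C treated *phot1phot2*, at 0.0921 to 0.411 CPM per kb, holds the lowest library. Its range overlaps that of *SDD1* in the same group (0.242 to 0.537 CPM per kb).

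After UV-C, members fell and none rose. In the fit of all 8 groups, 2 of 10 fell in *phot1* and 2 of 10 in *phot2*, 7 of 10 fell in *phot1phot2*, and 3 of 10 fell in WT. Over all genes tested, 18.1% fell in *phot1*, 20.2% in *phot2*, 21.6% in *phot1phot2*, and 19.2% in WT, so that the shares of members in the single mutants and in WT lie close to the background while 7 of 10 in *phot1phot2* lies above it. Of these 7 members, 5 had a log2FC under −1, as had 3.55% of all genes tested. The median log2FC of the 10 members was −0.19 in *phot1*, −0.44 in *phot2*, −0.94 in *phot1phot2*, and −0.46 in WT, and the median over all tested genes lay within 0.01 of 0 in each genotype.

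**Figure D2:**
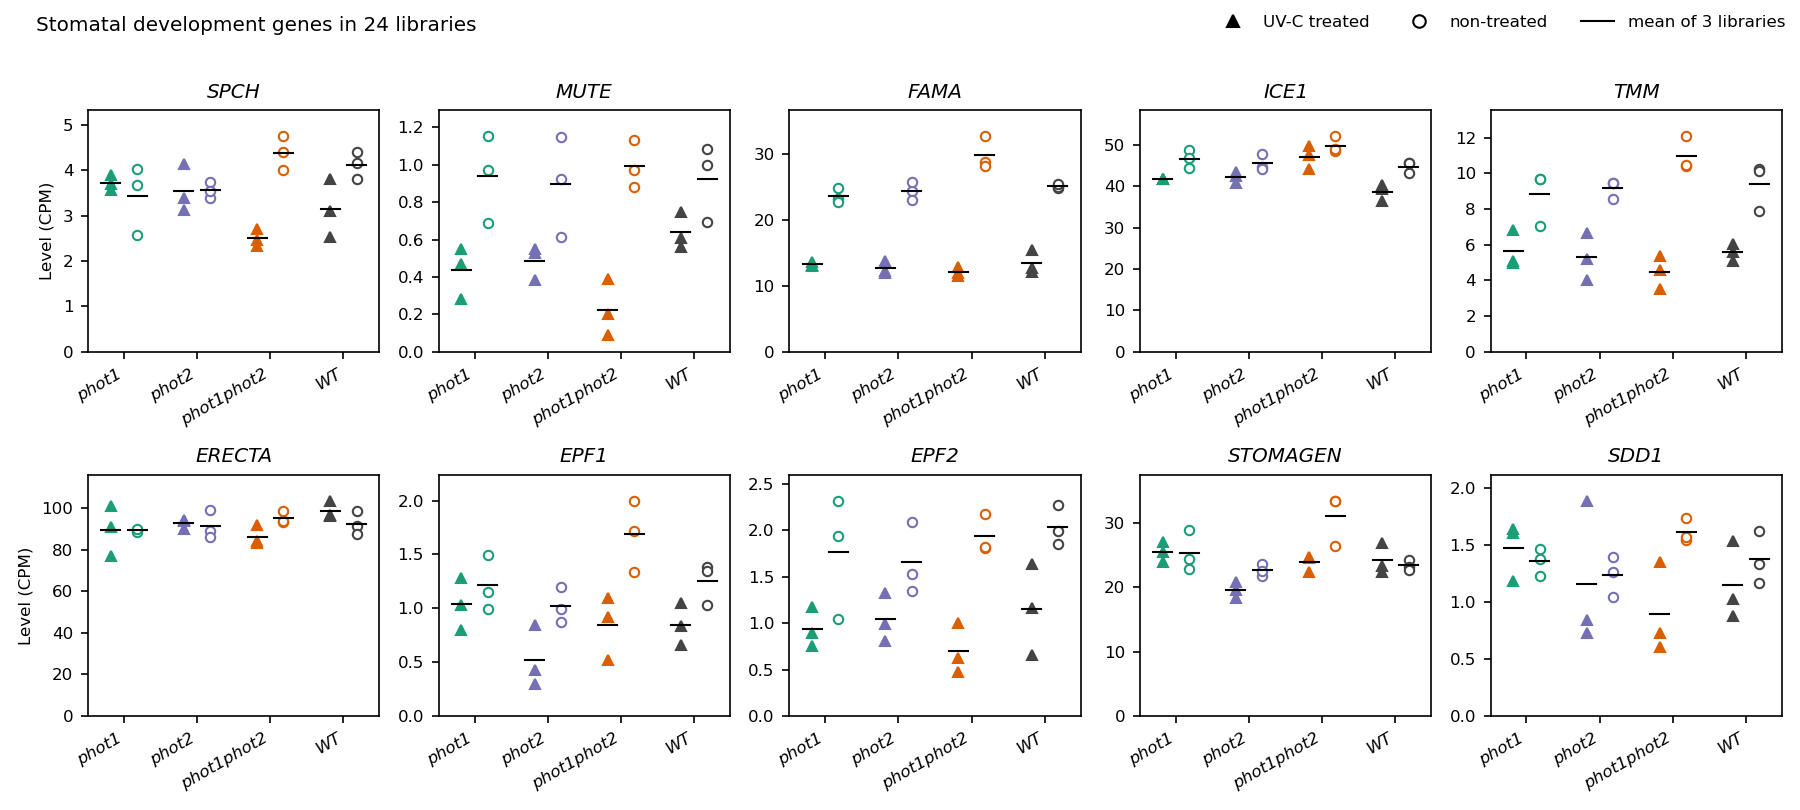
Level (CPM, linear axes from 0) of each gene in every library, UV-C treated (filled triangles) to the left of non-treated (open circles) for *phot1*, *phot2*, *phot1phot2*, and WT. Horizontal bars are means of 3 libraries. *FAMA* and *TMM* lie lower after UV-C in every genotype, and *ERECTA* stays between 76.7 and 104 CPM throughout.

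*FAMA*, the factor of guard cell differentiation, fell in every genotype. In *phot1*, its libraries gave 13.6, 13.2, and 12.9 CPM after UV-C against 23.1, 22.6, and 24.8 CPM non-treated (log2FC −0.83, SE 0.08, edgeR adjusted p = 3.72e-08). In *phot2* they gave 12.3, 11.9, and 13.8 CPM after UV-C against 24.4, 25.7, and 23 CPM non-treated (log2FC −0.94, SE 0.08, edgeR adjusted p = 5.03e-09). In *phot1phot2* they gave 12, 12.9, and 11.5 CPM after UV-C against 28.8, 32.6, and 28.2 CPM non-treated (log2FC −1.30, SE 0.08, edgeR adjusted p = 2.2e-11). In WT they gave 15.4, 12, and 12.6 CPM after UV-C against 24.9, 25, and 25.4 CPM non-treated (log2FC −0.91, SE 0.08, edgeR adjusted p = 8.32e-09). The ranges did not overlap in any genotype. After UV-C the 4 genotypes lay together, with means of 12.1 to 13.4 CPM, whereas among the non-treated groups *phot1phot2* was the highest.

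*MUTE*, which sets guard mother cell identity, passed the test in *phot1phot2* and rests on the lowest read counts of the set. After UV-C the *phot1phot2* libraries held 8, 4, and 2 reads (0.386, 0.2, and 0.0867 CPM), against 37, 33, and 46 reads (0.971, 0.880, and 1.13 CPM) in non-treated plants (log2FC −2.15, SE 0.39, edgeR adjusted p = 7.38e-05). In the other genotypes it had 6 to 11 reads in *phot1*, 9 to 11 in *phot2*, and 11 to 16 in WT after UV-C, and its log2FC was −1.11 (SE 0.35, edgeR adjusted p = 0.0115), −0.89 (SE 0.34, edgeR adjusted p = 0.0317), and −0.53 (SE 0.32, edgeR adjusted p = 0.181). The ranges of CPM did not overlap in any of the 3 mutants and overlapped in WT. Without *phot1* non-treated replicate 2, *MUTE* passed in *phot1* as well (edgeR adjusted p = 0.00682). The likelihood ratio test called *MUTE* in *phot1* with all libraries.

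*SPCH*, which starts the lineage, also fell in *phot1phot2*, with 2.32, 2.70, and 2.47 CPM after UV-C against 4.75, 4.40, and 4.01 CPM non-treated (log2FC −0.81, SE 0.16, edgeR adjusted p = 0.000229). Its log2FC was 0.12 (SE 0.16) in *phot1*, −0.01 (SE 0.16) in *phot2*, and −0.40 (SE 0.16, edgeR adjusted p = 0.0436) in WT. *ICE1*, the partner of the 3 factors, had a small fall in WT, with 39.4, 36.4, and 40.2 CPM after UV-C against 45.6, 43.1, and 45.5 CPM non-treated (log2FC −0.21, SE 0.06, edgeR adjusted p = 0.0032). This call was lost without WT non-treated replicate 1 or 3 or WT UV-C replicate 2 (edgeR adjusted p 0.0143, 0.0137, and 0.0269). In the mutants the log2FC of *ICE1* was −0.16 (*phot1*, edgeR adjusted p = 0.023), −0.11 (*phot2*, edgeR adjusted p = 0.106), and −0.08 (*phot1phot2*, edgeR adjusted p = 0.237).

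Of the receptors, *TMM* fell in all 4 genotypes and *ERECTA* in none. In *phot1phot2*, *TMM* had 4.59, 5.35, and 3.51 CPM after UV-C against 12.1, 10.4, and 10.5 CPM non-treated (log2FC −1.30, SE 0.17, edgeR adjusted p = 1.9e-06). In WT it had 5.62, 5.08, and 6.06 CPM after UV-C against 7.90, 10.3, and 10.1 CPM non-treated (log2FC −0.76, SE 0.17, edgeR adjusted p = 0.000938). The log2FC was −0.65 in *phot1* (SE 0.17, edgeR adjusted p = 0.00371) and −0.80 in *phot2* (SE 0.17, edgeR adjusted p = 0.000526), and every treated library lay below every non-treated library of its genotype. The call in *phot1* was lost in 4 of the 6 fits without a library of the groups compared: non-treated replicate 1 (edgeR adjusted p = 0.0198) or 3 (edgeR adjusted p = 0.0178), or UV-C replicate 1 (edgeR adjusted p = 0.0225) or 2 (edgeR adjusted p = 0.0236). *ERECTA*, a receptor kinase with many roles in shoot growth, had log2FC 0.00 in *phot1*, 0.02 in *phot2*, −0.14 in *phot1phot2*, and 0.10 in WT, each with an SE of 0.07. In *phot1phot2* alone its ranges did not overlap, at 82.9 to 91.7 CPM after UV-C against 93.4 to 98.4 CPM non-treated (edgeR adjusted p = 0.111).

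Among the ligands, the inhibitory peptides fell in *phot1phot2*. *EPF2* had 0.628, 0.999, and 0.477 CPM after UV-C against 2.18, 1.81, and 1.82 CPM non-treated (log2FC −1.48, SE 0.33, edgeR adjusted p = 0.000681). *EPF1* had 0.918, 1.10, and 0.520 CPM after UV-C against 1.34, 2.00, and 1.72 CPM non-treated (log2FC −1.01, SE 0.29, edgeR adjusted p = 0.0063). The treated libraries lay below the non-treated ones for both genes. The *EPF1* call was lost without *phot1phot2* non-treated replicate 2 or 3 (edgeR adjusted p 0.0296 and 0.0159) or UV-C replicate 1 or 3 (edgeR adjusted p 0.0146 and 0.0526). In the other genotypes the log2FC of *EPF2* was −0.90 (*phot1*, edgeR adjusted p = 0.0241), −0.67 (*phot2*, edgeR adjusted p = 0.0764), and −0.80 (WT, edgeR adjusted p = 0.0337). That of *EPF1* was −0.22 (*phot1*, edgeR adjusted p = 0.569), −0.97 (*phot2*, edgeR adjusted p = 0.0186), and −0.58 (WT, edgeR adjusted p = 0.121). *EPF2* passed in *phot1* without non-treated replicate 2 (edgeR adjusted p = 0.00382), and *EPF1* passed in *phot2* without UV-C replicate 2 (edgeR adjusted p = 0.00278). With all libraries, the likelihood ratio test called *EPF2* in *phot1* and *EPF1* in *phot2*.

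*STOMAGEN*, the promoting peptide, was counted with 348 to 1272 reads per library. In *phot1phot2* it had 24.7, 22.4, and 24.5 CPM after UV-C against 33.4, 33.5, and 26.4 CPM non-treated (log2FC −0.38, SE 0.09, edgeR adjusted p = 0.00173), and the call was lost without non-treated replicate 1 or 2 or UV-C replicate 2 (edgeR adjusted p 0.0119, 0.0126, and 0.0127). In *phot2* the libraries gave 18.4, 19.6, and 20.9 CPM after UV-C against 21.7, 23.6, and 22.6 CPM non-treated (log2FC −0.21, SE 0.10, edgeR adjusted p = 0.0779). In *phot1* and WT the log2FC was 0.01 (SE 0.09) and 0.05 (SE 0.09), with overlapping ranges. *SDD1* had 14 to 65 reads per library and no fall called by the quasi-likelihood test. In *phot1phot2* its log2FC was −0.87 (SE 0.31, edgeR adjusted p = 0.0204), with 0.725, 1.35, and 0.607 CPM after UV-C against 1.55, 1.73, and 1.57 CPM non-treated, and it passed without UV-C replicate 2 (edgeR adjusted p = 0.00375). The likelihood ratio test called this fall with all libraries.

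**Figure D3:**
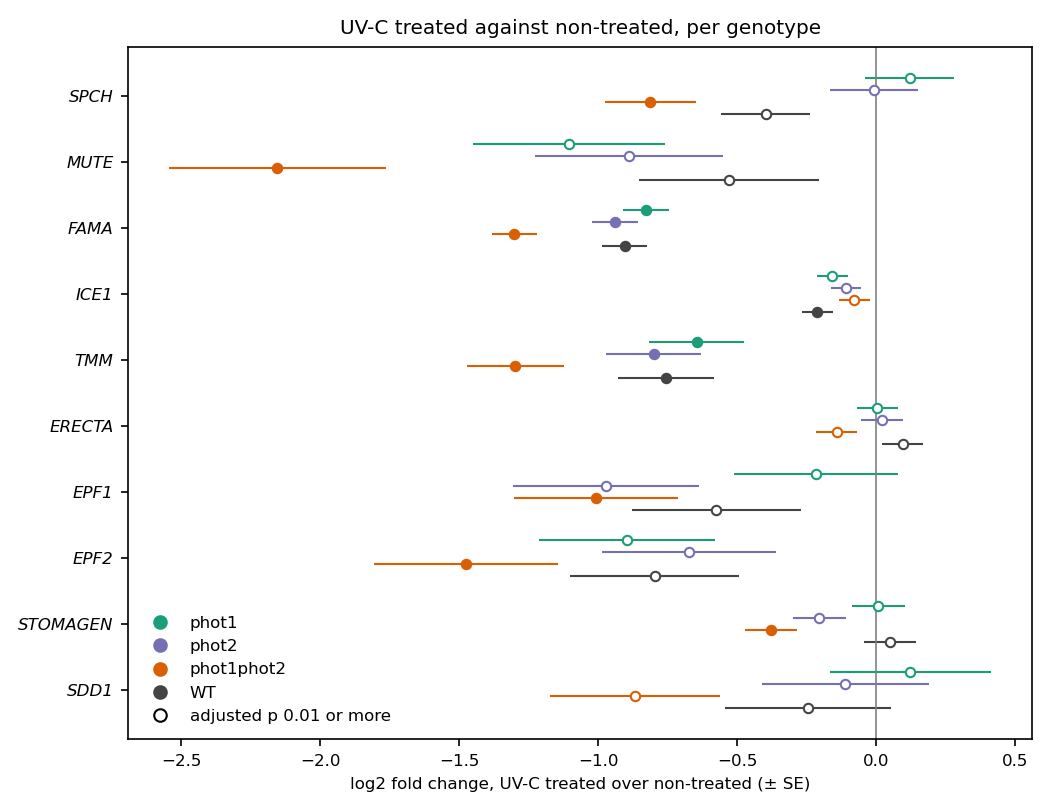
log2FC (± SE) of UV-C treated over non-treated plants for each gene in *phot1*, *phot2*, *phot1phot2*, and WT, with filled symbols for edgeR adjusted p under 0.01. The symbols of *phot1phot2* lie left of those of WT for 9 of 10 genes, *ICE1* being the exception.

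Whether the UV-C effect differed between a mutant and WT was tested as an interaction. None of the 10 members passed in *phot1*, *phot2*, or *phot1phot2* (0.0149%, 1.07%, and 4.61% of all tested genes did). An unadjusted edgeR p under 0.05 was reached by 1, 0, and 5 members in the same order, against 1481, 2840, and 4970 of the 20094 genes. DESeq2 also called none of the members, and edgeR's likelihood ratio test called *STOMAGEN* in *phot1phot2*. For *phot1phot2* minus WT, 9 of 10 differences were negative, with a median of −0.43 against 0.00 over all tested genes. The members nearest to the limit were *FAMA* (−0.40, SE 0.12, edgeR adjusted p = 0.0313), *STOMAGEN* (−0.43, SE 0.13, edgeR adjusted p = 0.0421), and *MUTE* (−1.63, SE 0.52, edgeR adjusted p = 0.0484). Hence the 7 falls in *phot1phot2* beside 3 in WT are not shown to be a difference between these genotypes at this limit. *STOMAGEN* passed without *phot1phot2* non-treated replicate 3 (edgeR adjusted p = 0.00627). In *phot1* the member with an unadjusted p under 0.05 was *SPCH* (0.52, SE 0.23, edgeR adjusted p = 0.60).

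In non-treated plants, each mutant was compared with WT, which asks whether stomatal genes differ without stress. None of the members passed in *phot1* or *phot2* (0.468% and 2.10% of all tested genes did), and neither DESeq2 nor the likelihood ratio test called any. None of the members had an unadjusted edgeR p under 0.05, against 2384 and 3752 of the 20094 genes. The lowest log2FC in *phot1* was that of *SPCH* (−0.27, SE 0.15, edgeR adjusted p = 0.509), and in *phot2* *EPF1* and *EPF2* both had −0.30 (SE 0.27, edgeR adjusted p = 0.614). In *phot1phot2*, 1 of 10 passed, against 6.35% of all genes. It was *STOMAGEN*, with 33.4, 33.5, and 26.4 CPM in *phot1phot2* against 24.3, 23.2, and 22.7 CPM in WT (log2FC 0.41, SE 0.09, edgeR adjusted p = 0.00448). Every *phot1phot2* library lay above every WT library, but replicate 3 lay nearer to WT than to the other *phot1phot2* libraries. The call was lost in 5 of the 6 fits that left out a library of the groups compared (the edgeR adjusted p reached 0.01 without WT replicate 1, 0.0194 without WT replicate 2, 0.0218 without WT replicate 3, 0.0251 without *phot1phot2* replicate 1, and 0.0346 without *phot1phot2* replicate 2), and the log2FC stayed between 0.35 and 0.51.

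Other members lay above WT in non-treated *phot1phot2* without passing. *FAMA* had 28.8, 32.6, and 28.2 CPM in *phot1phot2* against 24.9, 25, and 25.4 CPM in WT, with no overlap (log2FC 0.25, SE 0.08, edgeR adjusted p = 0.0272). DESeq2 and the likelihood ratio test did call *FAMA* in this comparison. *TMM* (log2FC 0.22, SE 0.15) and *ICE1* (log2FC 0.15, SE 0.05, edgeR adjusted p = 0.056) did not overlap with WT either, whereas *EPF1* (log2FC 0.43, SE 0.26) and *SDD1* (log2FC 0.24, SE 0.27) did. The log2FC was positive for 9 of 10 members, with a median of 0.19 against −0.01 over all tested genes, and the exception was *EPF2* (−0.07, SE 0.27).

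After UV-C, none of the members passed in *phot1* or *phot2* relative to WT (0.328% and 8.28% of all tested genes did), and none was called by DESeq2 or the likelihood ratio test. An unadjusted edgeR p under 0.05 was reached by 0 and 2 members, against 3260 and 5803 of the 20094 genes. *STOMAGEN* in *phot2* came nearest, with 18.4, 19.6, and 20.9 CPM against 22.4, 26.9, and 23.4 CPM in WT (log2FC −0.30, SE 0.10, edgeR adjusted p = 0.0389). In *phot1phot2*, 2 of 10 passed, against 24.2% of all genes tested. *ICE1* was higher, with 44.1, 47.7, and 49.8 CPM against 39.4, 36.4, and 40.2 CPM in WT (log2FC 0.29, SE 0.06, edgeR adjusted p = 0.000453), and it passed in each fit that left out a library. *MUTE* was lower, with 8, 4, and 2 reads against 12, 16, and 11 reads in WT (log2FC −1.52, SE 0.44, edgeR adjusted p = 0.00962). The *MUTE* call was lost in 5 of 6 such fits, without UV-C WT replicate 1, 2, or 3 (edgeR adjusted p 0.0176, 0.0374, and 0.0184) or UV-C *phot1phot2* replicate 2 or 3 (edgeR adjusted p 0.0312 and 0.0643), and by DESeq2. The CPM of *MUTE* also lay below WT in *phot1* and *phot2* (log2FC −0.56, SE 0.39, and −0.40, SE 0.38), without overlap and without passing. *STOMAGEN*, higher in *phot1phot2* in non-treated plants, had log2FC −0.02 (SE 0.10) after UV-C.

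**Figure D4:**
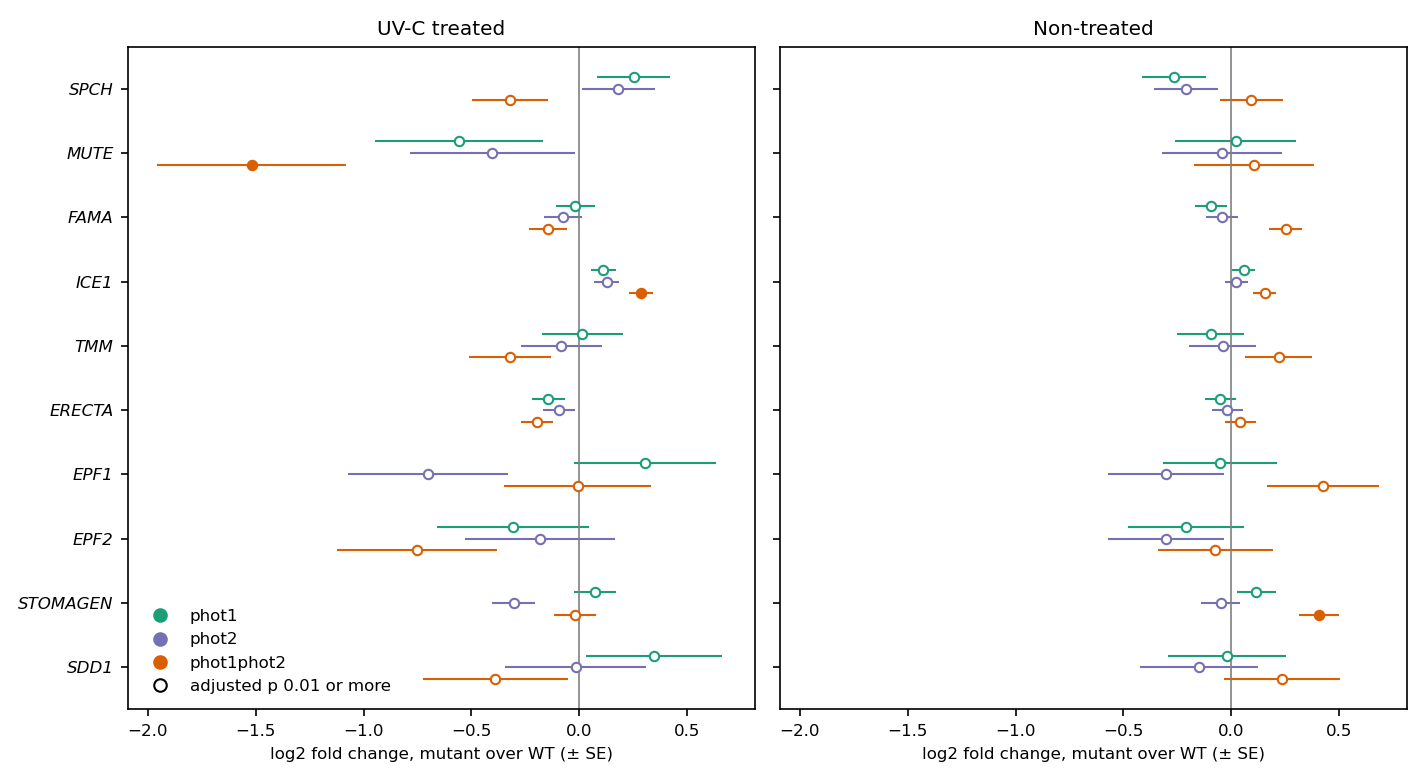
log2FC (± SE) of *phot1*, *phot2*, and *phot1phot2* over WT for each gene, after UV-C (left) and in non-treated plants (right), with filled symbols for edgeR adjusted p under 0.01. In non-treated plants only *STOMAGEN* in *phot1phot2* is filled, at 0.41, and after UV-C only *ICE1* (0.29) and *MUTE* (−1.52) in *phot1phot2*.

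The double mutant was also set against each single mutant. In non-treated plants, 0 of 10 members passed against *phot1* and 1 of 10 against *phot2* (0.687% and 0.826% of all tested genes did). An unadjusted edgeR p under 0.05 was reached by 3 and 4 members, against 3614 and 3556 of the 20094 genes. The member that passed was *STOMAGEN*, higher in *phot1phot2* than in *phot2* (21.7, 23.6, and 22.6 CPM in *phot2*) by a log2FC of 0.46 (SE 0.09, edgeR adjusted p = 0.0078). This call was lost in 5 of the 6 fits without a library of these groups, with edgeR adjusted p 0.0352, 0.0225, and 0.0408 without *phot2* replicates 1, 2, and 3, and 0.0383 and 0.0729 without *phot1phot2* replicates 1 and 2. *FAMA* was higher than in *phot1* by a log2FC of 0.35 (SE 0.08, edgeR adjusted p = 0.0166) and was called there by DESeq2, while the likelihood ratio test called *FAMA* and *STOMAGEN* there. Against *phot2*, *FAMA* was higher by a log2FC of 0.29 (SE 0.08, edgeR adjusted p = 0.0353), and DESeq2 and the likelihood ratio test called it there too. After UV-C, 0 of 10 passed against *phot1* and 0 of 10 against *phot2* (9.35% and 12.1% of all genes did), and none was called by DESeq2 or the likelihood ratio test. An unadjusted edgeR p under 0.05 was reached by 3 and 4 members, against 6606 and 7348 of the 20094 genes. *SPCH* was nearest in the comparison with *phot1*, with 2.32, 2.70, and 2.47 CPM in *phot1phot2* against 3.69, 3.56, and 3.90 CPM in *phot1* (log2FC −0.57, SE 0.17, edgeR adjusted p = 0.0224). These comparisons share the *phot1phot2* libraries with those above.

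Other genes of the pathway were read from a list of 38 loci, of which 37 were tested. *CYCD7;1*, a cyclin of the last division of the lineage, had 0 to 8 reads per library and was not tested. After UV-C, 10 rose and 6 fell in *phot1*, 11 rose and 4 fell in *phot2*, 9 rose and 6 fell in *phot1phot2*, and 10 rose and 4 fell in WT, with a median log2FC over the 37 of 0.00, −0.01, −0.02, and 0.10 in that order. Over all genes tested, 17.1% rose in *phot1*, 19.6% in *phot2*, 21.4% in *phot1phot2*, and 18.0% in WT. Among the risers were *MPK3*, a MAP kinase downstream of the receptors (log2FC 2.64 in *phot1*, 2.16 in *phot2*, 2.57 in *phot1phot2*, and 2.75 in WT), *PIF4*, a light-regulated bHLH factor (2.08, 2.66, 2.99, and 1.92 in that order), and *MKK4*, the MAP kinase kinase above MPK3 (1.66, 1.19, 1.29, and 1.53). *MPK3* shares exonic bases with a gene on the other strand and *MKK4* with a gene on the same strand, so their counts are uncertain. *CRSP*, a protease that matures EPF2, had log2FC 0.90, 1.47, 2.11, and 0.82 in the same order.

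The fallers of this list included epidermal homeodomain factors. *ATML1* had log2FC −0.88 in *phot1*, −1.04 in *phot2*, −1.16 in *phot1phot2*, and −0.93 in WT, and *HDG2*, whose exons share bases with an opposite-strand gene, had −0.93, −0.96, −0.78, and −0.91. *FLP*, a MYB factor that ends the last division of the lineage, had −0.43, −0.55, −1.03, and −0.40. *FLP* and *SERK2* share a few exonic bases with opposite-strand genes. In the interaction of *phot1phot2*, where 4.61% of all tested genes passed, 4 of the 37 pathway genes were higher and 2 lower. The higher were *CRSP* (1.29), *PIF4* (1.08), *PHYB* (0.58), and *PHYA* (0.48), and the lower were *FLP* (−0.63) and *SERK2* (−0.58). In non-treated plants none of the 37 passed in *phot1* or *phot2*, with 5 and 8 at an unadjusted p under 0.05 by edgeR. Of the 20094 genes tested, 2384 and 3752 were under this limit. In non-treated *phot1phot2*, where 6.35% of all tested genes passed, 5 of the 37 were higher and 0 lower. The largest log2FC of these 5 were those of *PIF4* (0.82), *CRY1* (0.36), *PHYA* (0.34), and *ATML1* (0.32). After UV-C, 7 of the 37 were higher and 5 lower in *phot1phot2* than in WT, led by *PIF4* (1.90) and *CDKB1;1* (−1.16), a kinase of the cell cycle. Over all genes tested, 24.2% passed in this comparison.

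Markers of other cells moved in the same samples. Of 12 guard cell markers, 10 fell in *phot1*, 7 in *phot2*, 9 in *phot1phot2*, and 9 in WT after UV-C, and 0 rose. Over all genes tested, 18.1%, 20.2%, 21.6%, and 19.2% fell in the same order. The median log2FC of the 12 markers was −0.74, −0.65, −0.94, and −0.74. The anion channel gene *SLAC1*, which overlaps genes on the other strand, had log2FC −1.82, −1.66, −1.47, and −2.34 in that order, and the kinase gene *HT1*, a regulator of the response to CO2, had −1.39, −1.36, −1.48, and −1.24. The summed level of the 12 markers was 115 to 120.2 CPM in *phot1*, 128 to 137 CPM in *phot2*, 144 to 169.8 CPM in *phot1phot2*, and 95.8 to 131 CPM in WT after UV-C, against 178 to 190.2 CPM, 188 to 192 CPM, 191 to 238 CPM, and 156 to 178 CPM in the non-treated plants of the same genotypes. None of these markers was at 0 reads in any library. In the interaction of *phot1phot2*, where 4.61% of all tested genes passed, 1 of the 12 markers did. It was *GC1* (log2FC −1.05, edgeR adjusted p = 0.00389), which in non-treated *phot1phot2* was higher than in WT (log2FC 0.72, edgeR adjusted p = 0.00264).

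Of 4 epidermis markers, *PDF2*, *CER5*, and *FDH* fell in every genotype after UV-C (18.1% to 21.6% of all tested genes did). The log2FC of these 3 lay between −1.29 and −0.60, and *PDF1* did not pass in any genotype. The summed level of the 4 markers was 458 to 548 CPM in *phot1*, 425 to 514 CPM in *phot2*, 515 to 542 CPM in *phot1phot2*, and 413 to 476 CPM in WT after UV-C, against 775 to 783 CPM, 741 to 773 CPM, 840 to 938 CPM, and 735 to 763 CPM in the non-treated plants of the same genotypes. Of 9 markers of dividing cells, 4 rose and 1 fell in *phot1*, 3 rose and 0 fell in *phot2*, 0 rose and 1 fell in *phot1phot2*, and 6 rose and 0 fell in WT, beside the shares of all tested genes that rose and fell given above. The cell cycle gene *CDC20.1* had log2FC 0.97 in *phot1*, 0.68 in *phot2*, 0.05 in *phot1phot2* (edgeR adjusted p = 0.863), and 1.09 in WT. Relative to WT after UV-C, 7 of these 9 were lower in *phot1phot2* (2153 of the 20094 genes were), with a median log2FC of −0.84. Their summed level there was 86.1 to 101 CPM in *phot1phot2* against 145 to 188 CPM in WT, and in non-treated plants it was 91.2 to 103 CPM in *phot1phot2* against 121 to 131 CPM in WT. The part of these cell types in the levels of the stomatal genes was not tested.

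**Figure D5:**
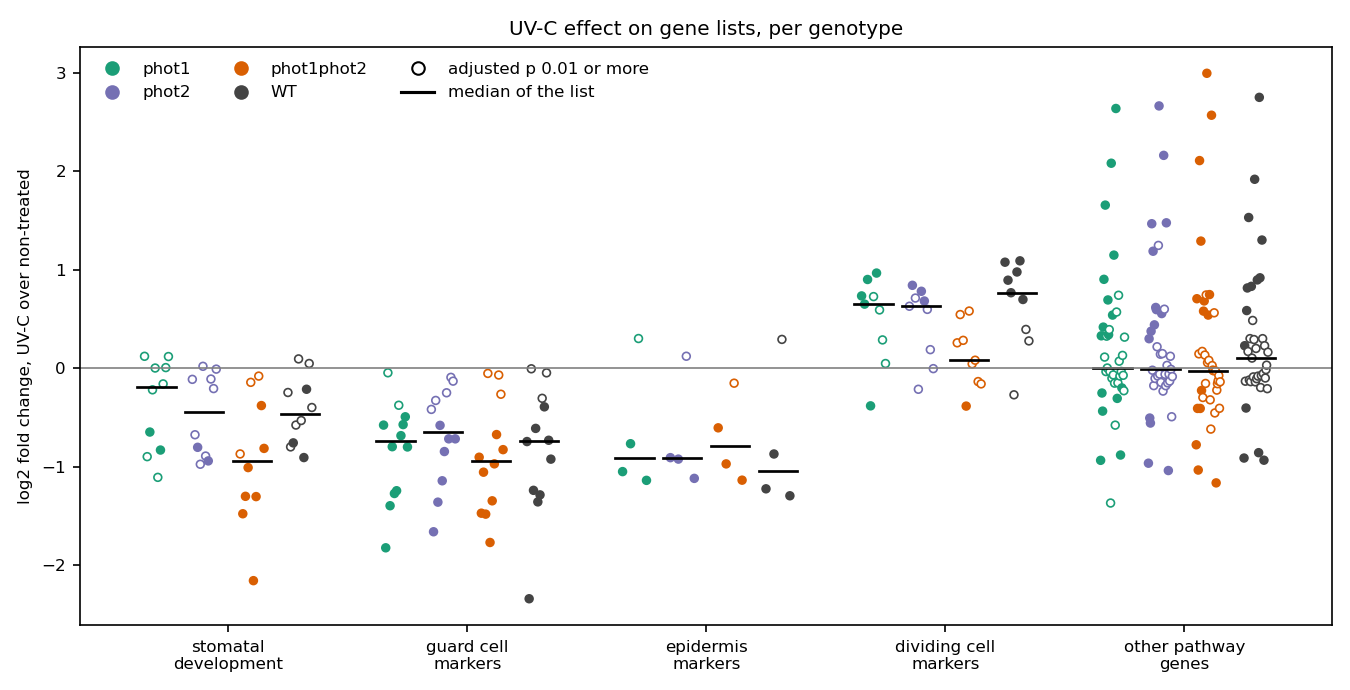
log2FC of UV-C treated over non-treated plants for each tested gene of 5 lists in *phot1*, *phot2*, *phot1phot2*, and WT, with filled symbols for edgeR adjusted p under 0.01 and bars for list medians. The medians of the guard cell and epidermis markers lie below 0 in every genotype, and that of the dividing cell markers lies near 0 in *phot1phot2* (0.08) and at 0.77 in WT.

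The genes most like each member over the 24 libraries, by Pearson's r of log2 CPM, are given as a description, since the libraries share treatment and depth. *FAMA* had the closest neighbours, AT1G26580 (r = 0.981), *ATPUP13* (0.980), and AT5G44660 (0.977). *TMM* followed with AT4G29020 (0.949), AT3G52920 (0.945), and AT3G03680 (0.937), then *EPF2* with AT1G28570 (0.912), AT1G60890 (0.896), and AT3G22810 (0.887), and *MUTE* with AT4G33170 (0.893), AT5G24390 (0.887), and AT3G59570 (0.886). *ICE1* was closest to AT5G26280 (0.882), AT1G52100 (0.881), and *JAL34* (0.865), *STOMAGEN* to *MYB6* (0.846), AT3G04470 (0.835), and *NDL1* (0.833), and *ERECTA* to *ATMYC1* (0.838), AT3G61610 (0.806), and *TCX2* (0.798). The remaining members were *EPF1* with AT2G38300 (0.836), *scpl35* (0.836), and AT5G48320 (0.830), *SPCH* with AT3G06778 (0.768), AT5G60280 (0.741), and AT3G57210 (0.739), and *SDD1* with AT5G06400 (0.759), AT5G52940 (0.750), and *MLO4* (0.739).

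Among the members themselves, *TMM* and *FAMA* had the highest r over the 24 libraries (0.898), followed by *EPF2* and *TMM* (0.865). After the mean of each group was taken off, r was −0.06 for *TMM* and *FAMA*, 0.55 for *EPF2* and *TMM*, and 0.72 for *TMM* and *SPCH* (0.730 before). The r of *TMM* and *SPCH* was then the highest of any pair of members, followed by that of *EPF1* and *TMM* (0.606), while *EPF2* and *SPCH* had 0.302. The shared pattern of *TMM* and *FAMA* lay between the groups. *ERECTA* and *ICE1* had the lowest r of any pair over the 24 libraries (−0.19), and 0.09 after the group means were taken off.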

How the data were processed

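RNA-Seq of whole rosettes was analysed from the deposited count table, which holds whole read counts per gene without normalization; the authors aligned reads with STAR 2.5.2b and counted them over Araport11 exons with featureCounts (Subread 1.6.2). The counting command sets no strand and leaves out multi-mapping reads. The deposited table also gives exonic length (another value, in bases), used for levels per kilobase.

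The genes tested reached 5 reads in 6 or more libraries and are protein-coding in RefSeq (TAIR10.1) (20094; another 142 had no type). Libraries were scaled by TMM, and edgeR 4.0.16 was run with all 8 groups in the model (estimateDisp, glmQLFit, glmQLFTest, R 4.3.3, limma 3.58.1), with Benjamini-Hochberg adjustment and a limit of 0.01. The study's own likelihood ratio test and DESeq2 1.42.0 were alternatives. The SE was computed from the log2FC and the F statistic. The pipeline was tested on simulated data. Log2 CPM used a prior count of 2.

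All 10 members are named, and of the lists (pathway, guard cell, dividing cell, epidermis, vascular, mesophyll, and morning and evening clock genes) at most the 4 largest called changes per direction, others as counts, with *PHOT1* and *PHOT2* as a check and the 3 genes most correlated with each member. *GC1*, *SLAC1*, *HT1*, and *CDC20.1* fall under this rule where they are described. Members and lists were chosen with earlier results of these data known. Replicate pairs differed by more than counting noise (chi-square per degree of freedom at least 4.22 in 24 pairs). Replicates are the labels' biological replicates. With 3 libraries against 3, an exact permutation test cannot give a p under 0.1. Replicate numbers do not mark a shared batch in the labels.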

Additional observations from a re-analysis of the deposited data

How the results depend on the processing

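Over 17 comparisons and 10 members, 2730 values were recomputed under other settings, and none that was called in either setting changed sign, while 87 values called in neither did. Of the 18 member calls, all 18 were kept under RLE and upper quartile scaling and the likelihood ratio test, 17 by DESeq2, without the count filter, and with all gene types, and 12 with only the groups compared. The counts that differed from those reported were as follows. With a limit of 0.05, they were 2 in non-treated *phot1phot2* against WT, 1 in *phot2* and 3 in *phot1phot2* against WT after UV-C, 5 in *phot1*, 4 in *phot2*, 8 in *phot1phot2*, and 5 in WT for UV-C, 3 in the interaction of *phot1phot2*, and for *phot1phot2* 1 against *phot1* and 2 against *phot2* in non-treated plants and 2 and 3 after UV-C. The likelihood ratio test gave 2 in non-treated *phot1phot2* against WT, 4 in *phot1*, 3 in *phot2*, and 8 in *phot1phot2* for UV-C, 1 in the interaction of *phot1phot2*, and 2 against each single mutant in non-treated plants. DESeq2 gave 2 in non-treated *phot1phot2* against WT, 1 after UV-C, and 1 against *phot1* and 2 against *phot2* in non-treated plants. With only the groups compared, counts were 0 in non-treated *phot1phot2* against WT and against *phot2*, 1 in *phot1phot2* against WT after UV-C, and 1 in *phot1*, 6 in *phot1phot2*, and 2 in WT for UV-C. Without the count filter, and with all gene types, the count in *phot1phot2* against WT after UV-C was 1, as *MUTE* was lost.

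Leaving out 1 library at a time gave 0 to 1 members in non-treated *phot1phot2* against WT and against *phot2*, 1 to 2 in *phot1phot2* against WT after UV-C, and for UV-C 1 to 4 in *phot1*, 2 to 3 in *phot2*, 5 to 7 in *phot1phot2*, and 2 to 3 in WT, and 0 to 1 in the interaction of *phot1phot2*. With the replicate number as a replicate block, 17 of the 18 calls were kept and the count in *phot1phot2* against WT after UV-C was 1. Libraries with the same replicate number in the sample titles, as used for this block, deviated together (r over 0.1 for every number) in 0 of 14 comparisons of 2 groups. Same-numbered libraries were each other's best match for every number in non-treated *phot1* and *phot1phot2* against WT and in UV-C against non-treated *phot1*. In the other comparisons this did not hold for every number. The submitter's own numbers in the sample descriptions often differ. They match the titles' pairs for non-treated *phot1phot2* and WT (r 0.215, 0.0835, and 0.275) and for *phot1* and WT after UV-C (r −0.0719, 0.109, and 0.0278). Replicate numbers were not taken as a pairing, and a pairing by the submitter's numbers was not tested. The low read counts of *MUTE*, *EPF1*, *EPF2*, and *SDD1* after UV-C limit what could be detected for them.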

Other observations

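The remaining marker lists were read for the same comparisons. Of 5 vascular markers, 3 rose in *phot1*, 4 in *phot2*, 5 in *phot1phot2*, and 3 in WT after UV-C, and 0 fell, where 17.1%, 19.6%, 21.4%, and 18.0% of all tested genes rose. Of 4 mesophyll markers, the tissue in which *STOMAGEN* is made, 2 fell in *phot1*, 3 in *phot2*, 1 in *phot1phot2*, and 4 in WT, and 0 rose (18.1%, 20.2%, 21.6%, and 19.2% of all tested genes fell), with a median log2FC of −0.18, −0.30, −0.09, and −0.27. In non-treated plants 0 of the 4 passed in any mutant relative to WT, with 0, 3, and 2 at an unadjusted p under 0.05 in *phot1*, *phot2*, and *phot1phot2* (edgeR's quasi-likelihood test). Of the 20094 genes tested, 2384, 3752, and 5979 were under this limit.

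Clock genes differed between the non-treated genotypes in which *STOMAGEN* was compared. Of 5 morning genes, *phot1* had 2 above WT, *phot2* had 3, and *phot1phot2* had 4, while of 6 evening genes 0, 3, and 4 were lower in the same order. Over all genes tested, 0.468%, 2.1%, and 6.35% passed in either direction. After UV-C, 5 of 6 evening genes were lower than in non-treated plants of each genotype, and the other, *GI*, was higher in *phot2* (log2FC 2.53, edgeR adjusted p = 0.000137) and *phot1phot2* (log2FC 3.24, edgeR adjusted p = 2.1e-05), with 1.56 in *phot1* (edgeR adjusted p = 0.015) and 0.62 in WT (edgeR adjusted p = 0.318). Of all tested genes, 18.1% fell after UV-C in *phot1*, 20.2% in *phot2*, 21.6% in *phot1phot2*, and 19.2% in WT. The part of the time of day in the levels of the stomatal genes was not tested.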
